A study of Rattus norvegicus with 30 samples.

Results

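The subject is 10 genes of cytotoxic lymphocytes in rat lung, namely Gzma, Gzmb, Gzmk, Prf1, Nkg7, Klrd1, Ncr1, Xcl1, Tbx21 and Eomes. They were chosen by symbol as markers of natural killer cells and cytotoxic T cells rather than by a threshold on values, with earlier results of these data known. The 10 genes occupied 11 rows among the 22914 genes of the count table, because Gzmb had 2 rows, and 10 rows passed the filter on low counts, out of 15934 genes tested.

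RNA was sequenced from the lungs of 30 male Sprague Dawley rats, 8 weeks old, with 3 rats in each of 10 groups. All rats were fasted, anaesthetised with 1% pentobarbital sodium and operated on, and lungs were taken 6 or 24 hours later. The pancreas was only turned slightly in Sham-6h and Sham-24h, and Con-6h and Con-24h had sterile saline put into the biliopancreatic duct. In SAP-6h and SAP-24h the duct received 5.0% sodium taurocholate at 0.1 mL per 100 g, a bile salt that causes severe acute pancreatitis (SAP) followed by acute lung injury. DEX-6h and DEX-24h received taurocholate and then dexamethasone (DEX), a synthetic glucocorticoid, intravenously at 10 mg/kg. Emo-6h and Emo-24h received taurocholate and then emodin, a plant anthraquinone, into the stomach, at a dose that the sample descriptions give as 10 mg/kg and the treatment protocol as 40 mg/kg. Drugs were given 2 and 12 hours after the operation, so the 6-hour rats had 1 dose. All groups other than DEX, emodin included, had saline intravenously. All groups other than emodin, DEX included, had carboxymethylcellulose by the stomach. The lungs of 3 of the 6 rats of each subgroup were sequenced, and the sources used here do not say how these 3 were picked. The lung vessels were flushed with saline, which need not remove every blood lymphocyte.

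Natural killer cells and cytotoxic CD8 T cells kill infected or stressed cells by releasing granules. Perforin opens the membrane of the target and granzymes enter and cut proteins inside it. T-bet (Tbx21) and Eomesodermin (Eomes) are the T-box transcription factors that drive this programme, and glucocorticoids are known to lower the number and the activity of many lymphocytes.

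Each value below is from 1 lung, and levels are in FPKM, fragment counts scaled by gene length and by library size. Differences are log2 fold changes ± SE from edgeR's quasi-likelihood test on the counts of all 30 libraries, first group minus second. A gene was called where its Benjamini-Hochberg adjusted p was under 0.05 and its change at least 2-fold, and only called genes are said to rise or fall. Rat numbers are the replicate numbers of the labels and do not link rats across groups.

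Reads on genes ranged from 16813949 (SAP-6h rat 3) to 34692306 per library. In the paper's mapping summary, the share of uniquely mapped reads was lower in every taurocholate library, drug-treated or not, than in every Sham or Con library. This difference coincides with taurocholate, so its part in the comparisons with Sham or Con cannot be told apart and was not tested. The surfactant gene Sftpc and the club cell gene Scgb1a1 were at no less than 12733 and 16320 FPKM in any library. Of the libraries, 7 stood apart for the cytotoxic genes, in that they were among the highest 3 or among the lowest 3 of the 30 for at least 3 genes. Emo-6h rat 3 and Sham-6h rat 2 were among the highest 3 for 9 genes each and Con-24h rat 1 for 6, and Emo-6h rat 3 was the highest of all for 7. At the other end, DEX-24h rat 3 was among the lowest 3 libraries for all 10 genes, DEX-24h rat 2 for 7, DEX-6h rat 3 for 4 and Emo-24h rat 3 for 3. The number of calls among the 10 genes is given with and without single rats of each comparison that held a call, as are the main counts of lymphocyte markers and related genes.

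The granule genes Nkg7, Prf1, Gzmk and Gzma were the most abundant, with means over the 30 libraries of 24.8, 22.6, 18.1 and 16.3 FPKM. Tbx21, Klrd1 and Xcl1 averaged 2.73, 2.39 and 2.27 FPKM. Gzmb, Ncr1 and Eomes were low, at 0.976, 0.880 and 0.653 FPKM. By the group medians, DEX-24h was the lowest of the 10 groups for 8 genes and DEX-6h for the other two, Klrd1 and Xcl1. Emo-24h had the highest median for 7 genes. By the group means, Emo-6h was highest for 8 genes, with rat 3 above the other 2 rats of its group.

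**Figure D1:**
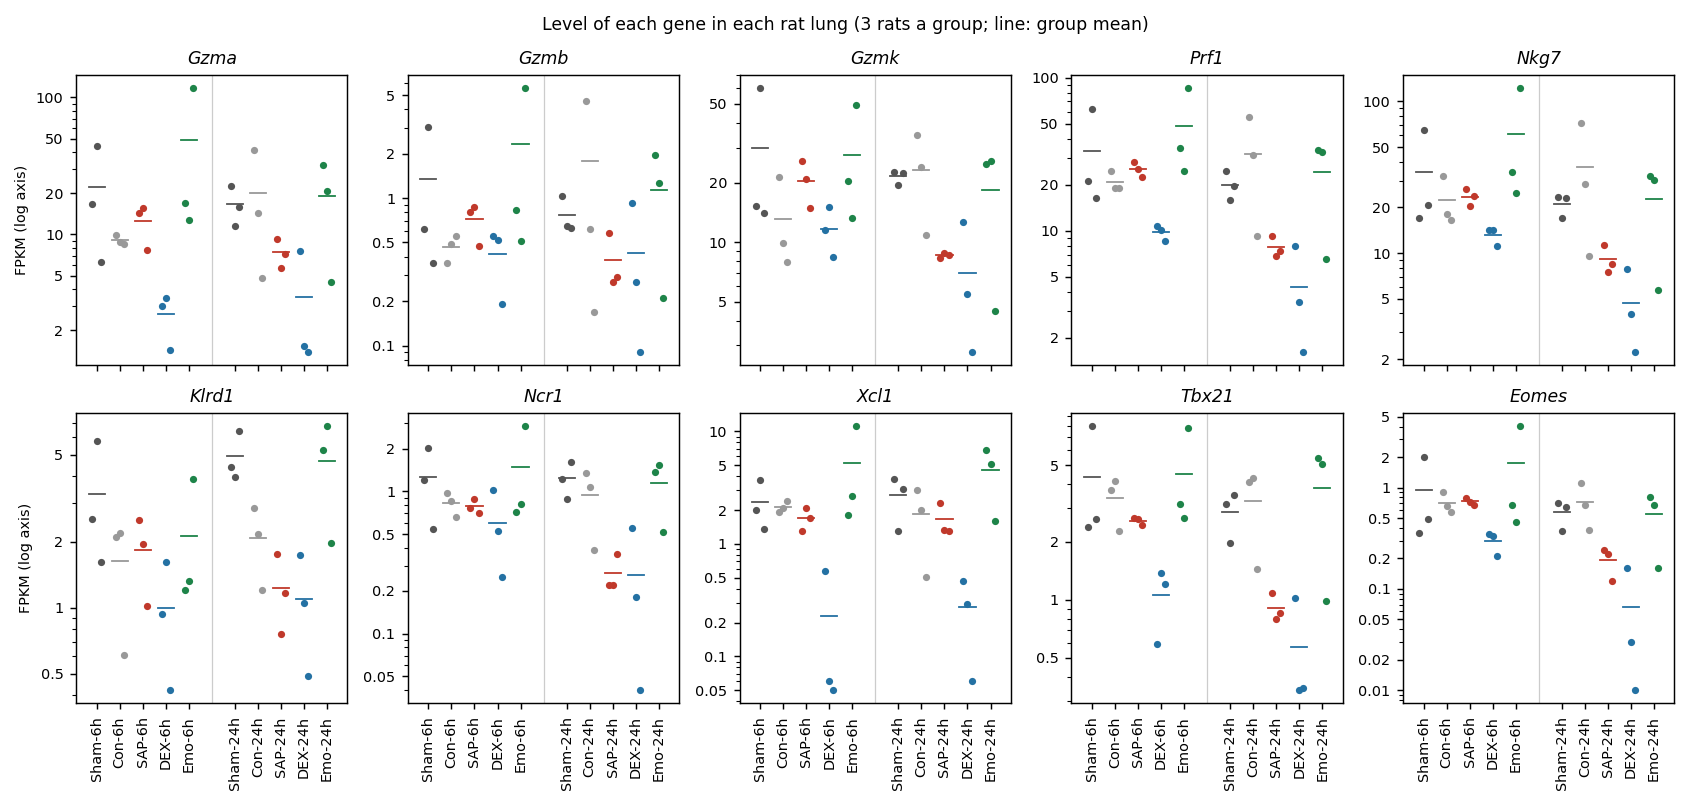
FPKM of each of the 10 cytotoxic genes (log axis) in each rat, with the 5 groups at 6 hours on the left of each panel and those at 24 hours on the right; short lines are group means of 3 rats. DEX-24h holds the lowest median in 8 panels. Emo-6h rat 3 and Sham-6h rat 2 lie above the other 2 rats of their groups in every panel, and Con-24h rat 1 lies well above its group for Gzma, Gzmb and Nkg7.

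Between groups in the order of their mean level, few neighbours were separated. For Prf1 and Nkg7 the 3 DEX-6h rats were all below the 3 Sham-24h rats, the next group up. For Tbx21 the DEX-6h rats were all below the SAP-6h rats, and for Xcl1 the DEX-24h rats were all below the SAP-24h rats. No neighbouring groups were separated for the other 6 genes.

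Over the 21 comparisons, 7 held at least 1 called gene of the 10, with 21 calls in all, of which 16 were in comparisons with a DEX group. All 16 were in comparisons of DEX with Sham or of Emo with DEX. DEX-6h vs SAP-6h and DEX-24h vs SAP-24h, which differ by the drug alone, held 0. The DEX and Sham rats differ in taurocholate as well as in the drug. Tbx21 was called in 5 comparisons, Prf1 and Xcl1 in 4 each, Gzma, Klrd1 and Eomes in 2 each, and Nkg7 and Ncr1 in 1 each. Gzmb and Gzmk were called in none. Several of these comparisons share a group, so they are not independent of each other.

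The first comparison asked how the DEX-treated lungs at 24 hours differed from the sham lungs. In DEX-24h vs Sham-24h, 5 of the 10 genes fell (Xcl1, Tbx21, Prf1, Eomes and Klrd1) and 0 rose, against 3.16% of all genes tested that fell. The median log2 fold change of the 10 genes was -2.18, and that of all genes tested was -0.01. For 9 of the 10 genes all 3 DEX-24h rats were below all 3 Sham-24h rats, as was the case for 15.9% of all genes; Gzmb was the one that overlapped.

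Prf1, the gene of perforin, was at 7.94, 3.41 and 1.61 FPKM in DEX-24h and 24.5, 16.0 and 19.6 FPKM in Sham-24h, a fall of 4.47-fold (log2 -2.16 ± 0.63, adjusted p = 0.0395). Klrd1, which encodes CD94, the shared chain of the CD94/NKG2 receptors for class Ib MHC molecules, was at 1.75, 1.05 and 0.49 FPKM in DEX-24h and 4.41, 3.95 and 6.39 FPKM in Sham-24h (log2 -2.12 ± 0.63, adjusted p = 0.0425). The groups did not overlap for either gene.

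Xcl1 encodes lymphotactin, a chemokine that natural killer cells and activated CD8 T cells release to attract dendritic cells. Its level was 0.47, 0.29 and 0.06 FPKM in DEX-24h and 3.77, 1.31 and 3.08 FPKM in Sham-24h. The DEX-24h values rest on only 10, 5 and 1 reads, but all lie well under the sham values. The gene fell 9.17-fold (log2 -3.20 ± 0.83, adjusted p = 0.0200, edgeR).

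Tbx21, which encodes T-bet, was at 1.02, 0.34 and 0.35 FPKM in DEX-24h and 3.14, 1.97 and 3.48 FPKM in Sham-24h, and fell 4.83-fold (log2 -2.27 ± 0.60, adjusted p = 0.0215). Eomes, its partner in natural killer cell maturation, was at 0.16, 0.03 and 0.01 FPKM in DEX-24h, from 14, 2 and 1 reads, and 0.71, 0.37 and 0.65 FPKM in Sham-24h. It fell by 2.98 on the log2 scale (SE 0.86, adjusted p = 0.0367 by edgeR). For both transcription factors DEX-24h rat 1 was the highest of its group, and even that rat was below every sham rat.

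The other 5 genes missed the adjusted threshold in this comparison. Ncr1, the gene of the activating natural killer receptor NKp46, was at 0.55, 0.18 and 0.04 FPKM in DEX-24h and 1.22, 0.88 and 1.60 FPKM in Sham-24h (log2 -2.21 ± 0.69, adjusted p = 0.0532). Nkg7, a granule membrane protein needed for full granule release, differed by -2.12 (adjusted p = 0.0674, edgeR). The granzyme genes Gzma, Gzmk and Gzmb differed by -2.19, -1.57 and -0.79 (adjusted p = 0.142, 0.156 and 0.762, edgeR). All 10 fitted differences were below 0. The number of calls was 0 when DEX-24h rat 2 or 3, or Sham-24h rat 1 or 3, was left out, 4 without Sham-24h rat 2 and 6 without DEX-24h rat 1. With only these 2 groups modelled Xcl1, Tbx21, Klrd1 and Nkg7 were called and Prf1 and Eomes were not.

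In Emo-24h vs DEX-24h, which sets the 2 drugs side by side and had as many calls, the same 5 genes rose (Xcl1, Tbx21, Prf1, Eomes and Klrd1) and 0 fell, against 3.82% of all genes tested that rose. This comparison shares its DEX-24h rats with the one above, so the shared list is not independent. The median difference of the 10 genes was 2.25, and that of all genes tested was 0.0069. Only Xcl1 and Klrd1 had groups that did not overlap, as did 18.6% of all genes.

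In Emo-24h Xcl1 was at 6.91, 5.17 and 1.60 FPKM, all above the DEX-24h rats, and it was 14.9-fold higher than in DEX-24h (log2 3.90 ± 0.84, adjusted p = 0.00512, edgeR). Tbx21 was at 5.42, 5.05 and 0.99 FPKM (log2 2.64 ± 0.60, adjusted p = 0.00764) and Prf1 at 33.6, 32.6 and 6.54 FPKM (log2 2.39 ± 0.64, adjusted p = 0.0207). Emo-24h rat 3 was the low one each time, at about the level of the highest DEX-24h rat for Tbx21 and Prf1.

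Eomes was at 0.81, 0.67 and 0.16 FPKM in Emo-24h (log2 2.85 ± 0.86, adjusted p = 0.0395) and Klrd1 at 5.27, 6.78 and 1.98 FPKM (log2 2.00 ± 0.63, adjusted p = 0.0481). Rat 3 was again the lowest of the 3. Without Emo-24h rat 3 the number of calls was 7, without DEX-24h rat 1 it was 8, without DEX-24h rat 3 it was 1, and without DEX-24h rat 2, Emo-24h rat 1 or Emo-24h rat 2 it was 2. Xcl1 was called in all 6 of these fits and Tbx21 in 5. With only these 2 groups modelled, Xcl1 was the 1 gene called. The call of Klrd1 was lost with RLE size factors and without the filter, and DESeq2 called 8 genes.

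Emo-24h vs Sham-24h had 0 called genes among the 10, as among all genes (0.0%), with 0 at an unadjusted p under 0.05 (1.3% of all genes) and 0 by DESeq2. The 10 differences lay between -0.28 (Gzmk) and 0.70 (Xcl1), 6 of them above 0. For Prf1 the 95% interval of the log2 difference ran from -1.03 to 1.49, so a change of 2-fold either way lay within it.

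**Figure D2:**
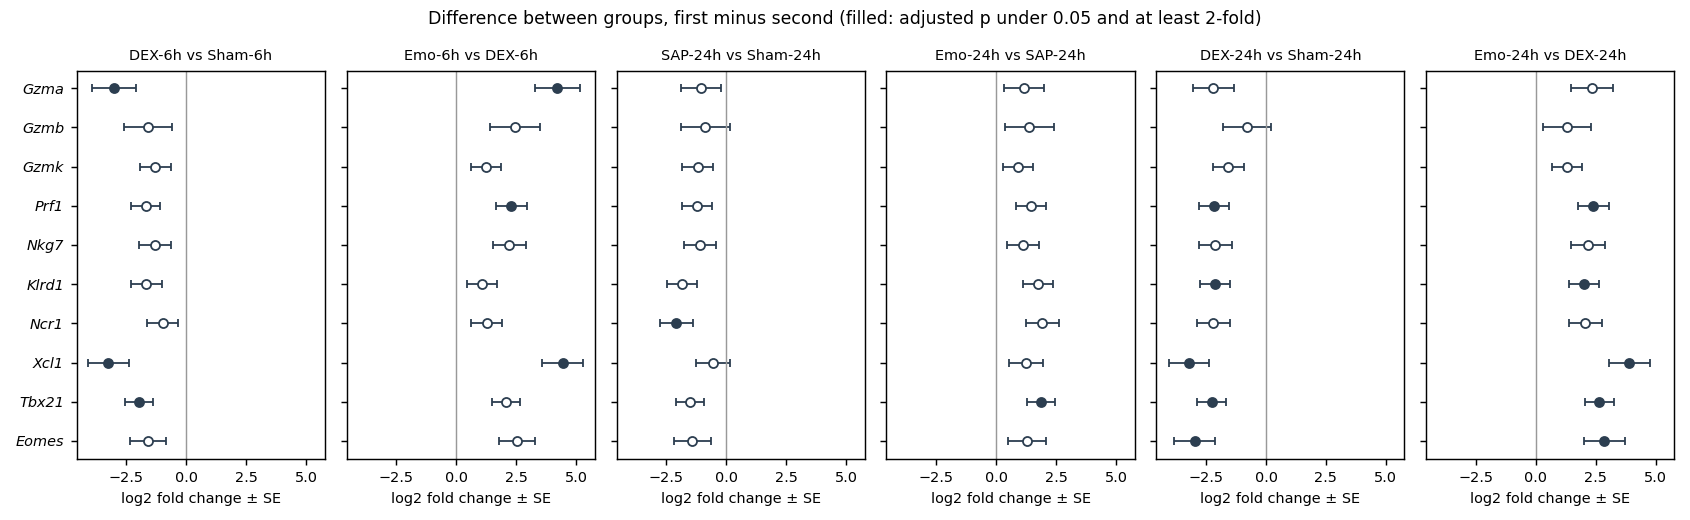
Log2 fold change ± SE (edgeR) of each of the 10 genes in 6 comparisons, first group minus second, with called genes filled. The 10 points lie left of 0 in the 2 comparisons of DEX with sham and in SAP-24h vs Sham-24h, and right of 0 in the 3 comparisons of emodin with DEX or SAP-24h.

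At 6 hours, after a single dose, DEX lungs were compared with sham lungs again. In DEX-6h vs Sham-6h, Xcl1, Gzma and Tbx21 fell and 0 of the 10 genes rose, against 1.73% of all genes tested that fell. The median of the 10 log2 fold changes was -1.63, and that of all genes tested was -0.04. Groups did not overlap for 6 of the 10 genes, as for 16.2% of all genes.

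Gzma encodes granzyme A, a tryptase of the granules. It was at 3.02, 3.44 and 1.44 FPKM in DEX-6h and 16.7, 44.0 and 6.25 FPKM in Sham-6h, a fall of 8.07-fold (log2 -3.01 ± 0.90, adjusted p = 0.0356, edgeR). The sham rats were widely spread, with rat 2 far above the others, yet even the lowest was above every DEX-6h rat.

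Xcl1 was at 0.58, 0.06 and 0.05 FPKM in DEX-6h, from 11, 1 and 1 reads, and 2.02, 3.73 and 1.35 FPKM in Sham-6h. It fell 9.49-fold (log2 -3.25 ± 0.86, adjusted p = 0.0192, edgeR). All 3 DEX-6h rats were below every sham rat, and 2 of them were near the limit of detection.

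Tbx21 was at 0.59, 1.38 and 1.21 FPKM in DEX-6h and 2.39, 8.0 and 2.63 FPKM in Sham-6h (log2 -1.98 ± 0.58, adjusted p = 0.0328, edgeR). Prf1, at 10.7, 10.1 and 8.62 FPKM in DEX-6h and 21.0, 62.4 and 16.3 FPKM in Sham-6h, was not called (log2 -1.70 ± 0.62, adjusted p = 0.0839). No gene was called without DEX-6h rat 3 or without Sham-6h rat 2, 1 was called without DEX-6h rat 1 or 2, and 0 were called when only these 2 groups were modelled; Gzma was called in 1 of the 6 fits with a rat left out, and Xcl1 and Tbx21 in 3 each. DESeq2 called 5 genes, the 3 above with Prf1 and Klrd1.

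In Emo-6h vs DEX-6h, Xcl1, Gzma and Prf1 rose and 0 of the 10 genes fell, against 0.759% of all genes tested that rose. The median of the 10 differences was 2.26, and that of all genes tested was 0.01. Groups did not overlap for 6 of the 10 genes, as for 11.8% of all genes.

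In Emo-6h Gzma was at 17.0, 12.8 and 118 FPKM (log2 4.22 ± 0.94, adjusted p = 0.0176). Prf1 was at 34.8, 24.7 and 85.9 FPKM (log2 2.30 ± 0.63, adjusted p = 0.0487). Xcl1 was at 1.80, 2.65 and 11.2 FPKM (log2 4.44 ± 0.86, adjusted p = 0.00814). Rat 3 was several times above rats 1 and 2 for Xcl1 and Gzma, and rats 1 and 2 were still above every DEX-6h rat for all 3 genes. Without Emo-6h rat 3, or without any one DEX-6h rat, 1 gene was called, and without Emo-6h rat 2, 6 genes were. The gene called in every one of these fits was Xcl1, whose log2 difference was between 3.19 and 6.40 in them. With only these 2 groups modelled 0 genes were called, and the adjusted p of Xcl1 was 0.121 by edgeR. The call of Prf1 was lost with RLE size factors, and DESeq2 called 6 genes.

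No gene of the 10 was called between either drug and untreated pancreatitis at 6 hours. DEX-6h vs SAP-6h had 0 called genes of the 10 (0 higher and 0 lower), against 0.515% of all genes in either direction. Xcl1, Gzma, Tbx21 and Prf1 were lower at an unadjusted p under 0.05, as were 1.78% of all genes. DESeq2 called 1 gene and a model of these 2 groups alone called 2. For 6 of the 10 genes all DEX-6h rats were below all SAP-6h rats, as for 8.74% of all genes. Gzma was at 14.2, 15.7 and 7.69 FPKM in SAP-6h, Prf1 at 28.1, 25.4 and 22.4 FPKM, Tbx21 at 2.65, 2.62 and 2.46 FPKM and Xcl1 at 1.31, 2.09 and 1.71 FPKM, all above every DEX-6h value. Xcl1 differed by -2.83 (adjusted p = 0.126, edgeR). Gzma differed by -2.25 (adjusted p = 0.270, edgeR).

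Emo-6h vs SAP-6h had 0 called genes (0.0251% of all genes), 2 at an unadjusted p under 0.05 (Gzma and Xcl1, 1.14%) and 0 by DESeq2. Groups did not overlap for 1 gene, Tbx21, as for 11.4% of all genes. All 10 differences were above 0, from 0.20 to 1.97. The largest, that of Gzma, went from 1.97 to 0.23 without Emo-6h rat 3. Against sham, in Emo-6h vs Sham-6h, 0 genes were called as well (0.477% of all genes), with 0 at an unadjusted p under 0.05 (3.35%) and 0 by DESeq2.

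Pancreatitis without a drug was compared with its controls at 6 hours, and no gene of the 10 was called. SAP-6h vs Sham-6h had 0 called genes (0.22% of all genes), SAP-6h vs Con-6h 0 (0.163%) and Con-6h vs Sham-6h 0 (0.0%). None of these had a gene of the 10 at an unadjusted p under 0.05, where the shares of all genes were 3.91%, 2.65% and 1.79%, and DESeq2 called 0 in each. The SAP-6h differences from sham ran from -0.83 to -0.33, and for Prf1 the 95% interval was -1.59 to 0.93.

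At 24 hours the untreated SAP lungs were compared with the sham lungs. In SAP-24h vs Sham-24h, Ncr1 fell and 0 of the 10 genes rose, against 3.01% of all genes tested that fell. The median of the 10 log2 fold changes was -1.20, and that of all genes tested was -0.03. For 9 of the 10 genes all SAP-24h rats were below all Sham-24h rats, as for 21.8% of all genes, and Xcl1 was the one that overlapped.

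Ncr1 was at 0.22, 0.22 and 0.36 FPKM in SAP-24h and 1.22, 0.88 and 1.60 FPKM in Sham-24h (log2 -2.08 ± 0.69, adjusted p = 0.0493, edgeR). Klrd1 was at 1.76, 0.76 and 1.17 FPKM in SAP-24h (log2 -1.86 ± 0.63, adjusted p = 0.0534) and Tbx21 at 1.08, 0.80 and 0.86 FPKM (log2 -1.51 ± 0.58, adjusted p = 0.0868), and neither was called. For these genes every SAP-24h rat was under each sham rat. The call of Ncr1 was lost when any 1 of the 6 rats was left out, with adjusted p from 0.073 to 0.14 by edgeR, and 0 genes were called when only these 2 groups were modelled. RLE size factors and the fit without the filter also gave 0 calls (adjusted p of Ncr1 = 0.0512 and 0.0602, edgeR), and a replicate block called Klrd1 in place of Ncr1 (adjusted p = 0.0505, edgeR). DESeq2 called 3 genes, Tbx21, Ncr1 and Klrd1.

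Against the saline-infused lungs, SAP-24h vs Con-24h, Prf1, Nkg7 and Tbx21 fell and 0 of the 10 genes rose, against 3.26% of all genes tested that fell. For 5 of the 10 genes all SAP-24h rats were below all Con-24h rats, as for 22.3% of all genes. Prf1 was at 9.28, 6.80 and 7.40 FPKM in SAP-24h and 55.4, 31.3 and 9.29 FPKM in Con-24h (log2 -1.90 ± 0.63, adjusted p = 0.0320). Nkg7 was at 11.4, 7.52 and 8.47 FPKM in SAP-24h and 72.5, 28.5 and 9.60 FPKM in Con-24h (log2 -1.89 ± 0.68, adjusted p = 0.0492). The 3 saline rats were spread widely, with rat 3 near the SAP-24h rats and overlapping them for Nkg7. The number of calls was 4 without Con-24h rat 3 and 0 without any other rat of the 2 groups, and 0 when only these groups were modelled. The call of Nkg7 was lost with RLE size factors, without the filter and with a replicate block.

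Tbx21 was at 4.07, 4.29 and 1.45 FPKM in Con-24h (log2 -1.71 ± 0.58, adjusted p = 0.0376 for SAP-24h vs Con-24h). Con-24h vs Sham-24h had 0 called genes of the 10 (1.0% of all genes), 0 at an unadjusted p under 0.05 (2.92%) and 0 by DESeq2. Groups did not overlap for 1 gene, Klrd1, which was lower in Con-24h, as were 15.2% of all genes.

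Other cell markers differed between the same groups. In SAP-24h vs Con-24h all 8 neutrophil markers rose (median 4.48; 3.65% of all genes rose), 11 of 12 T cell markers fell (median -1.95) and 0 of 7 B and plasma cell markers were called. The neutrophil markers summed to 4518 to 16402 FPKM in SAP-24h, 105 to 958 FPKM in Con-24h and 203 to 9278 FPKM in Sham-24h. Of the 8, 4 fell in Con-24h vs Sham-24h (median -2.93), as did 0.916% of all genes. Sham-24h rats 1, 2 and 3 had sums of 1475, 203 and 9278 FPKM, with rat 2 inside the Con-24h range. The count of 4 is not given without single rats. Leaving out 1 rat left 6 to 8 neutrophil markers higher and 4 to 12 T cell markers lower in SAP-24h vs Con-24h, with 4 without Con-24h rat 1 and 6 without Con-24h rat 2 or SAP-24h rat 1. The part of these cells in the results on the 10 genes was not tested.

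In Emo-24h vs SAP-24h, Tbx21 rose and 0 of the 10 genes fell, against 1.93% of all genes tested that rose. Its difference was 1.88 ± 0.58, adjusted p = 0.0468, with emodin rats 1 and 2 far above the SAP-24h rats and rat 3 within their range. All 10 differences were above 0 and their median was 1.33. Only Ncr1, at 1.36, 1.54 and 0.52 FPKM in Emo-24h, and Klrd1 had groups that did not overlap, as did 23.0% of all genes. Leaving out Emo-24h rat 3 kept the call of Tbx21, and leaving out any other of the 6 rats, or modelling only these 2 groups, ended it. It was also lost with a replicate block (adjusted p = 0.0629, edgeR) and without the filter on low counts (adjusted p = 0.0552, edgeR), and DESeq2 called 3 genes, Tbx21, Ncr1 and Klrd1. Of the 12 T cell markers 3 rose in the same comparison (median 1.55), 8 without Emo-24h rat 3, 1 without SAP-24h rat 2 or 3 and 0 without any other rat. Of the B and plasma cell markers 0 of 7 were called, and 1 of 8 neutrophil markers fell (median -1.29), against 1.26% of all genes that fell. The neutrophil count was 2 without SAP-24h rat 2 and 0 without any other rat. The part of these cells in the call of Tbx21 was not tested.

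DEX-24h vs SAP-24h had 0 called genes of the 10, against 3.73% of all genes in either direction, with Xcl1 the 1 gene at an unadjusted p under 0.05 (4.47% of all genes were lower) and 1 gene called by DESeq2. Xcl1 was at 2.32, 1.34 and 1.31 FPKM in SAP-24h, above all 3 DEX-24h rats, an order that 8.65% of all genes had (log2 -2.64 ± 0.84, adjusted p = 0.0542, edgeR). Of the other 9 genes, none had groups that did not overlap, and the differences ran from -1.56 for Eomes to 0.08 for Gzmb. Markers of other cells fell in the same comparison, namely 4 of 7 of B and plasma cells (median -1.68), 2 of 8 of neutrophils (median -2.47) and 2 of 5 of all leukocytes (median -0.81), against 2.55% of all genes, and 0 of 12 T cell markers were called. The B and plasma cell count was 0 without DEX-24h rat 1 or 2, 1 without SAP-24h rat 3 and 2 without SAP-24h rat 1, and the neutrophil count was 0 without DEX-24h rat 2 or 3 and 1 without SAP-24h rat 1.

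Between 6 and 24 hours no gene of the 10 was called within any treatment. The shares of all genes called were 0.257% in Sham-24h vs Sham-6h, 0.00628% in Con-24h vs Con-6h, 2.42% in SAP-24h vs SAP-6h, 7.14% in DEX-24h vs DEX-6h and 9.41% in Emo-24h vs Emo-6h. At an unadjusted p under 0.05 there were 0, 0, 4, 2 and 2 genes, all lower at 24 hours, against 3.26% and 3.4% of all genes either way and 4.83%, 5.35% and 3.85% lower, and DESeq2 called 0, 0, 0, 1 and 1. In SAP-24h vs SAP-6h, 6 of the 10 genes (Gzmk, Nkg7, Tbx21, Prf1, Ncr1 and Eomes) were lower in every SAP-24h rat than in every SAP-6h rat, as were 17.8% of all genes. In DEX-24h vs DEX-6h this was so for 3 genes, Nkg7, Prf1 and Eomes, and for 21.6% of all genes. In SAP-24h vs SAP-6h Prf1 differed by -1.59 (adjusted p = 0.120, edgeR). Eomes differed by -1.78 (adjusted p = 0.160, edgeR).

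Markers of blood cells also differed between the times. Of 6 red blood cell markers, 4 fell in SAP-24h vs SAP-6h (median -2.61), 6 fell in Emo-24h vs Emo-6h (median -3.61) and 0 were called in DEX-24h vs DEX-6h (median -1.39). They summed to 8142 to 12631 FPKM in SAP-6h and 1438 to 2634 FPKM in SAP-24h, and to 3951 to 10240.0 FPKM in Emo-6h and 373 to 1628 FPKM in Emo-24h. Of the 12 T cell markers 3, 0 and 10 fell in these 3 comparisons, in that order, and of the 7 B and plasma cell markers 0, 0 and 7 (median -2.19 in DEX-24h vs DEX-6h). The shares of all genes that fell were 1.74%, 3.08% and 3.91%. With 1 rat left out, 7 to 10 T cell markers and 5 to 7 B and plasma cell markers fell in DEX-24h vs DEX-6h. Their part in the differences of the 10 genes was not tested. In DEX-24h vs Sham-24h 0 of the 6 red blood cell markers were called.

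Whether an effect differed between the times was tested as an interaction. None of the 10 genes was called for SAP against Sham, DEX against SAP or Emo against SAP, and none reached an unadjusted p under 0.05, against 6.27%, 4.85% and 8.78% of all genes. DESeq2 called 0 in each. The smallest adjusted p was 0.554, 0.735 and 0.290 by edgeR. The shares of all genes called were 0.0314%, 0.138% and 1.68%. Of the 75 related genes described further on, 0, 0 and 2 were called in them, the 2 being Nfil3 and Xcr1 for Emo against SAP.

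Gzmk and Gzmb, the granzyme genes with no call, are of the same granule family. Gzmk, a tryptase encoded on chromosome 2 as Gzma is, was between 2.77 FPKM (DEX-24h rat 3) and 60.3 FPKM (Sham-6h rat 2). In SAP-24h its 3 values were 8.33, 8.81 and 8.64 FPKM and in Sham-24h 22.7, 19.4 and 22.4 FPKM, which do not overlap (log2 -1.19 ± 0.64, adjusted p = 0.221, edgeR). Gzmb encodes granzyme B, which cuts after aspartate and activates caspases. Its main row was between 0.09 FPKM (7 reads, DEX-24h rat 3) and 5.60 FPKM (406 reads, Emo-6h rat 3), with 3 other values above 1.9 FPKM, in Sham-6h rat 2, Con-24h rat 1 and Emo-24h rat 1.

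The second Gzmb row, also on chromosome 15, held 14 reads in Con-24h rat 1, 2 in DEX-24h rat 1, 1 each in SAP-6h rat 1 and Emo-6h rat 2, and 0 in the other 26 libraries, and did not pass the filter. Granzyme and Klr genes have close relatives in the rat, and reads that fit more than 1 place were discarded, so counts of Gzmb, Gzma, Gzmk and Klrd1 may be too low by an amount that was not measured.

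The 10 genes varied together from rat to rat. Over the 30 libraries Pearson's r of log2(FPKM + 1) between 2 of the genes ran from 0.555 to 0.980 over the 45 pairs, with a median of 0.835. With the group means taken out, r ran from 0.706 to 0.970, with a median of 0.843, so the rats of 1 group also differed in all 10 together. Without the 7 libraries that stood apart r ran from 0.410 to 0.957 over the other 23, with a median of 0.681, and without any single one of them the median was between 0.813 and 0.847. These are descriptions, and all points share the libraries and their depth.

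Of 12403 other genes with a mean of at least 1 FPKM, those whose levels followed the 10 genes most closely were mostly genes of T cells and natural killer cells. The comparison used the mean standardised log2(FPKM + 1) of the 7 genes with a mean of at least 1 FPKM. The highest r over the 30 libraries was that of Txk, a kinase of T cells and natural killer cells, at 0.954. Next came Gzmm, the gene of granzyme M, at 0.944, the unnamed gene AABR07027872.1 at 0.937 and the lectin-like receptor gene Klri1 at 0.933. Cd8a, the CD8 alpha chain, had 0.930, AABR07030798.1 0.929, Il2rb, the interleukin 2 and 15 receptor beta chain, 0.910, and Cd244, a receptor of natural killer cells, 0.895. Spn, the leukocyte sialophorin CD43, and the adaptor Dok2 both had 0.891. Without the 2 libraries farthest from the median (DEX-24h rat 3 and Emo-6h rat 3), these values were between 0.857 and 0.939.

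Because the 10 genes moved together, the sequence before their start sites was read from RefSeq (assembly GRCr8), where 8 of the 10 had an entry and Klrd1 and Ncr1 did not. The windows of the 3 genes called most often, Tbx21, Xcl1 and Prf1, are shown as the 250 bases upstream of the start, 5′ to 3′ on the gene's strand, with the core letters bound by RUNX factors (TGTGGT or its reverse complement ACCACA) in capitals. Tbx21 is at chr10:82595254-82595503 on the minus strand, Xcl1 at chr13:79785441-79785690 on the minus strand and Prf1 at chr20:29788790-29789039 on the plus strand.
Tbx21: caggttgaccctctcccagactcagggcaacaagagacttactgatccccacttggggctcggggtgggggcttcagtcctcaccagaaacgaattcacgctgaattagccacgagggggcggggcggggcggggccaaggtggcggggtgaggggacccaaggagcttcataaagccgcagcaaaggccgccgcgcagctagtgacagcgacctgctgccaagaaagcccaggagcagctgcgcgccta
Xcl1: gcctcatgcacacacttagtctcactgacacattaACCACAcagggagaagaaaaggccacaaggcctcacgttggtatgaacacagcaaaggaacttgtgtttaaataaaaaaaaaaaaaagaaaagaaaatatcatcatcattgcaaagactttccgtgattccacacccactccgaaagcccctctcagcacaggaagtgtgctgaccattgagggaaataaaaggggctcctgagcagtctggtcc
Prf1: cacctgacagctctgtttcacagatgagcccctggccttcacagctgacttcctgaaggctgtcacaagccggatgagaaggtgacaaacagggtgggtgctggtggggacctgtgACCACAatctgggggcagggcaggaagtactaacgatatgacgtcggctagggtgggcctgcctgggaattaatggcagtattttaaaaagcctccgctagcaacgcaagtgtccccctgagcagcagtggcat
The RUNX letters were in 7 of the 8 windows, in all but Tbx21, and in 14.5% of the 33469 windows of all genes, both strands searched. They lay at -215 to -210 from the start in Xcl1 and at -134 to -129 in Prf1, and the Gzmb window held them 3 times. The motif was picked after the values were seen, and a match of 6 letters is not a binding site.

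Other letters were less frequent in the 8 windows, both strands searched. The T-box core GGTGTG, the kind that T-bet and Eomesodermin bind, was in the windows of Gzmk and Xcl1 and in 15.4% of all. The ETS letters CAGGAAG were in Nkg7, Prf1 and Xcl1 and in 10.2% of all. The glucocorticoid receptor half-site AGAACA was in Gzmk alone and in 17.5% of all. In the 8 windows no match of one motif overlapped a match of another.

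Genes related to the cytotoxic programme were read from 6 lists with 75 genes tested. The lists hold genes that other leukocytes use as well, such as Coro1a, Tyrobp, Cst7 and Ccl3, and a marker of dendritic cells, Xcr1, so a count over the 75 is not one of cytotoxic cells alone. In DEX-24h vs Sham-24h, 25 of the 75 fell and 0 rose, in Emo-24h vs DEX-24h 25 rose and 0 fell, and in Emo-24h vs Sham-24h 0 were called. In DEX-6h vs Sham-6h 7 fell and 1 rose, and in Emo-6h vs DEX-6h 7 rose. In SAP-24h vs Sham-24h 10 fell and 1 rose, and in Emo-24h vs SAP-24h 7 rose and 1 fell. In SAP-24h vs Con-24h the related genes went both ways, with 14 lower and 8 higher. The 8 were Nfil3 (2.48), Il18rap (2.02), Cst7 (1.60), Lyst (1.51), Itga2 (1.38), Ccl3 (1.24), Stx11 (1.11) and Tyrobp (1.08), in the comparison where all 8 neutrophil markers rose; the part of neutrophils in them was not tested. DEX-24h vs SAP-24h had 9 lower (Ccl4, Cx3cr1, Cst7, S1pr5, Coro1a, Il21r, Nfil3, Tyrobp and Tnfsf10), with the B cell, neutrophil and leukocyte markers that fell there given above, and DEX-24h vs DEX-6h 15 lower, each with 0 higher. These counts depended on single rats. With 1 rat left out, 11 to 23 fell in DEX-24h vs Sham-24h (11 without DEX-24h rat 3, 13 without DEX-24h rat 2 or Sham-24h rat 1) and 9 to 27 rose in Emo-24h vs DEX-24h (9 without DEX-24h rat 3, 10 without Emo-24h rat 2, 11 without DEX-24h rat 2 or Emo-24h rat 1). Likewise, 4 to 8 fell in DEX-6h vs Sham-6h (4 without Sham-6h rat 2), 1 to 11 rose in Emo-6h vs DEX-6h (2 without Emo-6h rat 3 or DEX-6h rat 2, 1 without DEX-6h rat 1 or 3, and 11 without Emo-6h rat 2), 2 to 8 fell in SAP-24h vs Sham-24h (2 without SAP-24h rat 1, 5 without SAP-24h rat 2 or Sham-24h rat 1) and 1 to 12 rose in Emo-24h vs SAP-24h (12 without Emo-24h rat 3 and 1 to 3 without any other). In SAP-24h vs Con-24h 3 to 19 fell (3 without Con-24h rat 1, 4 without SAP-24h rat 2 or 3, 7 without Con-24h rat 2 or SAP-24h rat 1) and 5 to 8 rose (5 without Con-24h rat 2 or 3 or SAP-24h rat 1 or 3). In DEX-24h vs SAP-24h 3 to 9 fell, with 3 to 5 when any one DEX-24h rat or SAP-24h rat 1 was left out, and in DEX-24h vs DEX-6h 6 to 12 fell, with 6 to 9 when DEX-24h rat 2 or 3 or DEX-6h rat 1 or 2 was left out. Of all genes tested, 2.55% fell in DEX-24h vs SAP-24h, and 2.25% rose in DEX-6h vs Sham-6h and 1.98% in SAP-24h vs Sham-24h; the other shares are given above.

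Among other granule proteins and death ligands, 5 of 10 fell in DEX-24h vs Sham-24h. Gzmm fell by 3.35 on the log2 scale (SE 0.87, adjusted p = 0.020 by edgeR). Ctsw, a cathepsin of cytotoxic cells, also changed by -3.35, Faslg, the Fas ligand gene, by -2.30 and Tnfsf10, the gene of the death ligand TRAIL, by -2.21. All 4 rose in Emo-24h vs DEX-24h, by 3.48, 2.62, 2.13 and 2.78. Tnfsf10 fell already in DEX-6h vs SAP-6h (-1.50 ± 0.30, adjusted p = 0.0170), where none of the 10 cytotoxic genes was called, but many cell types make it.

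Of the 9 genes of the machinery that docks and releases granules in many cell types, 1 fell in DEX-24h vs Sham-24h, Coro1a, an actin-binding protein of all leukocytes (-1.32 ± 0.33, adjusted p = 0.0143), and the median of the 9 was 0.04. Coro1a also fell in DEX-24h vs SAP-24h (-1.77 ± 0.33, adjusted p = 0.00232) and rose in Emo-24h vs DEX-24h (1.59 ± 0.33, adjusted p = 0.00383).

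Of 20 other natural killer receptors and adaptors, 7 fell in DEX-24h vs Sham-24h, with a median of -1.57. Klri2 changed by -3.41, Klrb1c by -3.40, Klre1 by -2.97 and Klrc2, the NKG2C chain that pairs with CD94, by -2.49. In Emo-24h vs DEX-24h 7 rose, with Klrb1c at 3.73 and Klrk1, the gene of NKG2D, at 2.64. In SAP-24h vs Sham-24h Klrb1c, Klrc2 and Cd96 fell, with log2 fold changes of -2.70, -1.90 and -1.43.

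The list of transcription factors beside Tbx21 and Eomes also holds Txk, the kinase named above, and its genes went both ways. Ikzf3, Txk and Tox2 fell in DEX-24h vs Sham-24h (-2.08, -1.85 and -1.03), and Runx3, a RUNX factor of cytotoxic cells, rose in Emo-24h vs DEX-24h (2.24 ± 0.59, adjusted p = 0.0189). Nfil3, a factor needed for natural killer cell development that other cells also make, rose in SAP-24h vs Sham-24h (2.27 ± 0.41, adjusted p = 0.00203) and in DEX-6h vs Sham-6h (1.59 ± 0.40, adjusted p = 0.0143). It fell in Emo-24h vs SAP-24h (-2.11 ± 0.41, adjusted p = 0.00479), in DEX-24h vs SAP-24h (-1.41 ± 0.40, adjusted p = 0.0294), in DEX-24h vs DEX-6h (-1.41 ± 0.40, adjusted p = 0.0120) and in Emo-24h vs Emo-6h (-1.20 ± 0.40, adjusted p = 0.0224).

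Of 14 receptors for cytokines and chemokines, 7 fell in DEX-24h vs Sham-24h. Xcr1, the receptor of the chemokine that Xcl1 encodes and a marker of the dendritic cells it attracts, changed by -5.41 ± 0.93, adjusted p = 9.8e-04, and by 5.04 in Emo-24h vs DEX-24h. These values rest on 1, 2 and 3 reads in the DEX-24h rats, against 145, 80 and 43 in Sham-24h and 99, 92 and 9 in Emo-24h, so the size of the difference is poorly set. Cx3cr1, the fractalkine receptor, changed by -3.24 and 3.73, and S1pr5, which lets natural killer cells leave the bone marrow and lymph nodes, by -2.65 and 2.83. In SAP-24h vs Sham-24h Xcr1, Il12rb1, Cxcr3 and Cxcr6 fell, with Xcr1 at -3.26 ± 0.77, adjusted p = 0.00968, from 5, 7 and 14 reads in SAP-24h. Xcl1 was not called there (-0.56 ± 0.71, adjusted p = 0.649), and whether the 2 genes differed in their change was not tested.

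Of 11 cytokines and chemokines that act on these cells, Il15, which keeps natural killer cells alive, fell in DEX-6h vs Sham-6h (-1.35 ± 0.30, adjusted p = 0.00598) and rose in Emo-6h vs DEX-6h (1.15 ± 0.29, adjusted p = 0.0336). Il15 also fell in DEX-6h vs SAP-6h (-1.25 ± 0.29, adjusted p = 0.0385, edgeR). There 2 of the 75 related genes fell and 0 rose, against 0.515% of all genes called in either direction. At 24 hours Cxcl9 and Ccl5 fell in DEX-24h vs Sham-24h (log2 -3.32 and -2.28), and both rose in Emo-24h vs DEX-24h. Ccl5 is made by cytotoxic cells themselves as well as by others.

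**Figure D3:**
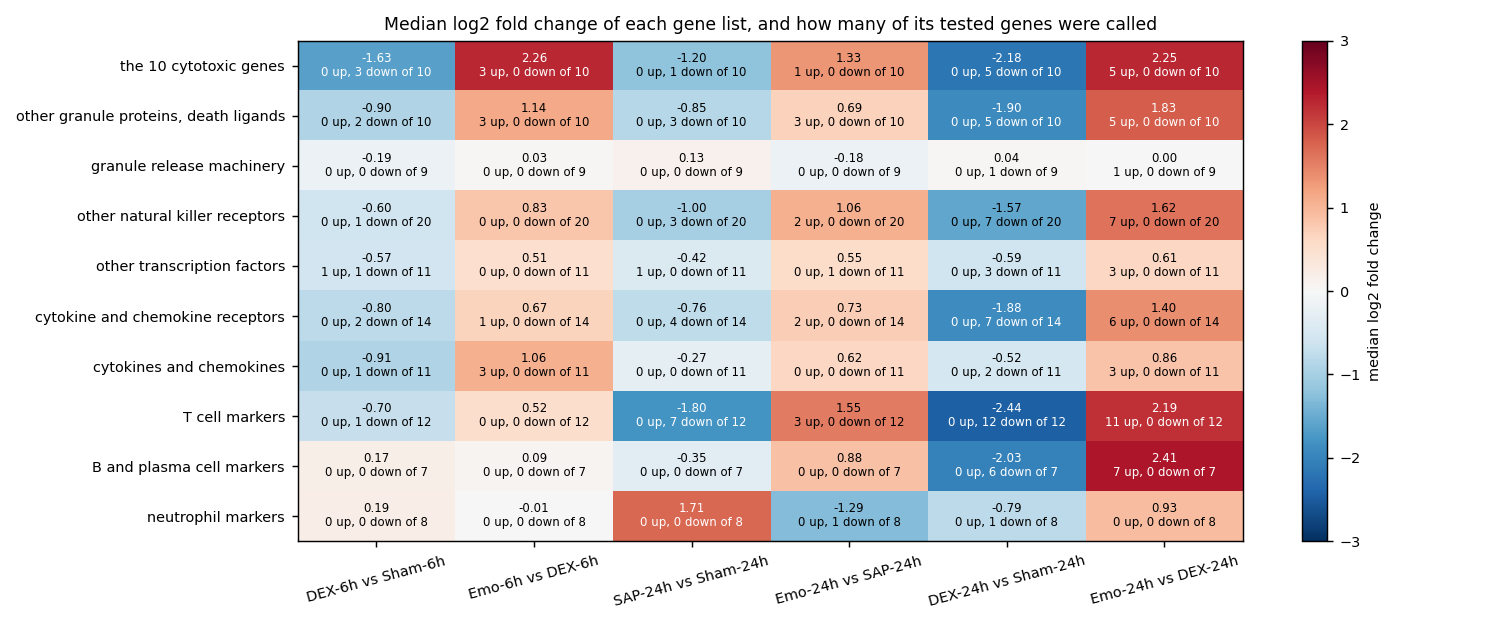
Median log2 fold change (colour and number) of the 10 cytotoxic genes, 6 lists of related genes and 3 lists of cell type markers in 6 comparisons, with how many genes of the list rose or fell of those tested. The granule release machinery has medians from -0.19 to 0.13, and T cell markers have a median of -2.44 in DEX-24h vs Sham-24h and 2.19 in Emo-24h vs DEX-24h.

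Lymphocyte markers moved in the direction of the 10 genes in DEX-24h vs Sham-24h and in Emo-24h vs DEX-24h, which share the DEX-24h rats. In DEX-24h vs SAP-24h and DEX-24h vs DEX-6h some markers fell where 0 of the 10 genes were called, as given above. The T cell list holds Cd8a, Cd8b and Cd2, which cytotoxic T cells carry as well, so it is in part a list of the same cells. In DEX-24h vs Sham-24h all 12 T cell markers fell (median -2.44) and 6 of 7 B and plasma cell markers did (median -2.03). The summed level of the T cell markers was 14.7 to 22.3 FPKM over the DEX-24h rats and 72.9 to 106 FPKM over the sham rats. That of the B and plasma cell markers was 6.84 to 13.6 and 23.9 to 55.4 FPKM. In Emo-24h vs DEX-24h 11 of 12 T cell markers and 7 of 7 B and plasma cell markers rose, and in SAP-24h vs Sham-24h 7 of 12 and 0 of 7 fell. With 1 rat left out, 6 to 11 T cell markers and 0 to 6 B and plasma cell markers fell in DEX-24h vs Sham-24h, with 6 T cell markers without DEX-24h rat 3, 8 without Sham-24h rat 1, and 0 B and plasma cell markers without DEX-24h rat 2 or Sham-24h rat 1. In Emo-24h vs DEX-24h 5 to 11 T cell markers rose, with 5 or 6 when DEX-24h rat 2 or 3 or Emo-24h rat 1 or 2 was left out, and 5 or 6 of the B and plasma cell markers. In SAP-24h vs Sham-24h 1 to 5 T cell markers fell, with 1 without SAP-24h rat 1 and 2 without Sham-24h rat 1. No T cell marker was at 0 in any library. Their part in the results on the 10 genes was not tested, and in bulk lung fewer cells of a type and less RNA per cell cannot be told apart.

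The lymphocyte markers were read at 6 hours as well; whether the DEX difference from sham changed with time was not tested. In DEX-6h vs Sham-6h 1 of 12 T cell markers, Cd2, fell (median -0.70) and 0 of 7 B and plasma cell markers did (median 0.17). The T cell count was 0 without DEX-6h rat 1 or 3 or Sham-6h rat 2 or 3, and the T cell median was -0.39 without Sham-6h rat 2. The summed T cell markers were 55.3 to 66.7 FPKM in DEX-6h, 77.2 to 88.8 FPKM in SAP-6h and 68.3 to 169 FPKM in Sham-6h. The summed 10 genes were 31.9 to 47.2 FPKM in DEX-6h, 75.7 to 103 FPKM in SAP-6h, 64.4 to 256 FPKM in Sham-6h and 84.3 to 412 FPKM in Emo-6h.

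The ratio of the summed 10 genes to the summed T cell markers, which overlap in the cells they mark, was 0.577 to 0.740 in the DEX-6h rats. It was 0.981 to 1.16 in SAP-6h and 1.19 to 2.67 in Emo-6h, both wholly above DEX-6h, and 0.629 to 1.51 in Sham-6h and 0.374 to 0.788 in Con-6h, which overlapped it. At 24 hours the DEX-24h rats had a ratio of 0.588 to 1.84, against 1.19 to 1.83 in the SAP-24h rats, 0.989 to 1.33 in Sham-24h, 0.924 to 1.29 in the saline rats and 0.869 to 1.40 under emodin, and DEX-24h overlapped each of the other groups. With 3 rats against 3 an exact permutation test cannot give a p below 0.10, so these ratios are descriptions.

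**Figure D4:**
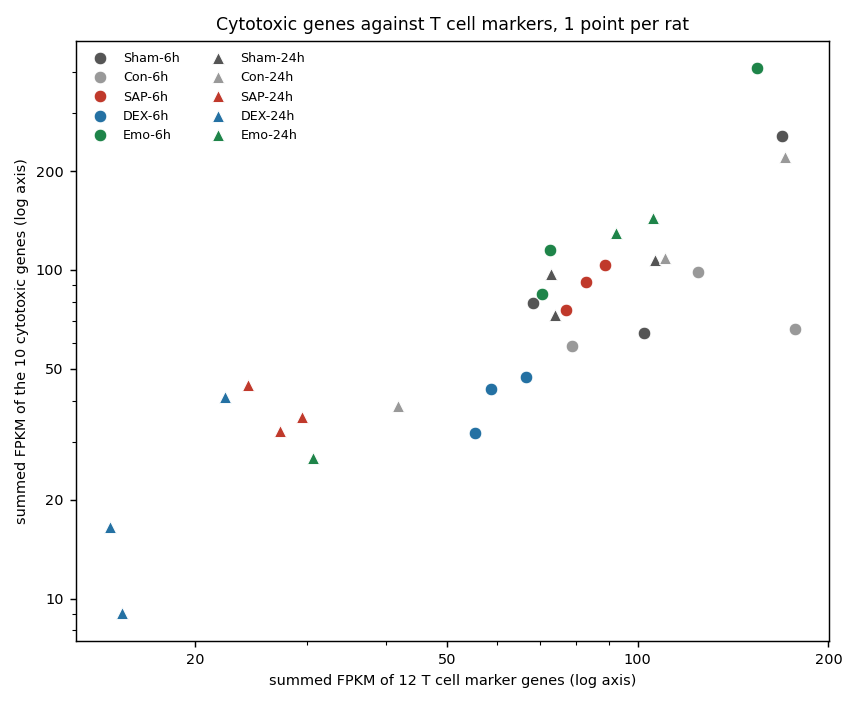
Summed FPKM of the 10 cytotoxic genes against the summed FPKM of 12 T cell markers in each of the 30 lungs (both axes log), circles for 6 hours and triangles for 24 hours. DEX-24h and SAP-24h lie at the lower left, together with Emo-24h rat 3 (26.7 and 30.7 FPKM) and Con-24h rat 3 (38.7 and 41.9 FPKM), and the DEX-6h rats lie below the SAP-6h and Emo-6h rats and at a lower T cell marker level.

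Markers of mast cells and basophils also moved in part, with 3 of 7 lower in DEX-24h vs Sham-24h and 2 of 7 in SAP-24h vs Sham-24h, and summed to 108 to 121 FPKM in DEX-24h and 85.7 to 111 FPKM in Sham-24h. Of 9 macrophage and monocyte markers 2 fell in DEX-6h vs Sham-6h, and in DEX-24h vs Sham-24h 1 rose and 0 fell, where 0.992% of all genes rose. Neutrophil markers summed to 4518 to 16402 FPKM in the SAP-24h rats, 4284 to 6616 under emodin, 1022 to 2988 under DEX and 203 to 9278 in the sham rats, and 0 of 8 were called in SAP-24h vs Sham-24h (6 higher without Sham-24h rat 3). Endothelial markers summed to 982 to 1126 FPKM in DEX-24h and 833 to 1076 in Sham-24h, with 0 of 6 called. Heart muscle markers summed to between 6.59 and 233 FPKM over the 30 libraries. The general leukocyte markers summed to 167 to 269 FPKM in DEX-24h and 331 to 479.6 FPKM in Sham-24h, with 2 of 5 called lower.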

How the data were processed

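Polyadenylated RNA of 30 rat lungs (10 groups of 3) was sequenced by the authors in directional paired-end libraries. The authors clipped adaptors, used TopHat2 (at most 2 mismatches) against a rat genome named rat_ensembl_v6, and discarded reads with several positions. The authors deposited raw counts per gene for 22914 genes and FPKM, rounded to 2 decimals, for 22907. The counting program is not given in the sources used here.

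Counts were tested with edgeR 4.0.16 (R 4.3.3): filterByExpr (minimum count 10, minimum total 15), TMM, and 1 quasi-likelihood fit with a term for each of 10 groups (30 libraries). P-values of 21 comparisons and 3 interactions were adjusted by Benjamini and Hochberg's method over 15934 genes. The SE is the log2 fold change divided by the root of its F statistic. Calls needed an adjusted p under 0.05 together with a change of at least 2-fold. FPKM served for levels, ranges and correlations (log2 with a pseudocount of 1). Alternatives were RLE size factors, DESeq2 1.42.0, no filter, only the compared groups, a replicate block and each library left out; the counts of related genes and markers and the pair correlations without single libraries were added after the data were seen. The edgeR and DESeq2 fits of DEX-24h vs Sham-24h and the search for like genes were tested on simulated data. In the simulated counts the spread between rats was fixed at the same value for every gene. Figures were drawn with matplotlib 3.10.9.

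The 10 genes and all lists were chosen with earlier results of these data known. All 10 genes are named; of each related list, the called genes with the largest change in a comparison, at most 4, may be named, besides the 10 genes most like the cytotoxic ones. Each library is a separate rat, so p-values measure the spread between rats.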

Additional observations from a re-analysis of the deposited data

Results flagged for a closer look

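Of the 75 genes related to the cytotoxic ones, 2 had an emodin effect that differed between 6 and 24 hours by a test of the difference itself, the interaction term of the edgeR model. Of all genes tested 1.68% were called in it, so a count of 2 is near the background and is no result about the related genes. Nfil3 differed between Emo and SAP by 0.02 ± 0.39 (log2 fold change ± SE) at 6 hours and by -2.11 ± 0.41 at 24 hours, a difference of -2.12 ± 0.56 (adjusted p = 0.0398). Xcr1 differed by -0.95 ± 0.69 at 6 hours and by 2.88 ± 0.77 at 24 hours, a difference of 3.83 ± 1.03 (adjusted p = 0.0435), from 5, 7 and 14 reads in SAP-24h and 99, 92 and 9 in Emo-24h. Both calls were lost with a replicate block (adjusted p = 0.0510 and 0.0584, edgeR) and with only the compared groups modelled (adjusted p = 0.128 for both, edgeR), and both held with DESeq2, with RLE size factors and without the filter. With 1 of the 12 rats left out, Nfil3 was called in 5 of 12 fits (adjusted p from 0.0138 to 0.127, edgeR) and Xcr1 in 4 of 12 (adjusted p from 0.0248 to 0.132, edgeR).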

How the results depend on the processing

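None of the log2 fold changes with an unadjusted p under 0.05 and at least a 2-fold change in the 10 genes changed sign under these alternatives; the others were not followed. The number of called genes did depend on the model. With DESeq2 it was 5 for DEX-6h vs Sham-6h, 6 for Emo-6h vs DEX-6h, 3 for SAP-24h vs Sham-24h, 3 for Emo-24h vs SAP-24h and 8 for Emo-24h vs DEX-24h, and 1 each for DEX-6h vs SAP-6h, Emo-24h vs Emo-6h, DEX-24h vs SAP-24h and DEX-24h vs DEX-6h. With only the compared groups in the model it was 0 for DEX-6h vs Sham-6h, Emo-6h vs DEX-6h, SAP-24h vs Sham-24h, SAP-24h vs Con-24h and Emo-24h vs SAP-24h, 1 for Emo-24h vs DEX-24h and DEX-24h vs DEX-6h, and 2 for DEX-6h vs SAP-6h and SAP-24h vs SAP-6h. Such models hold 6 libraries. SAP-24h vs Sham-24h had 0 with RLE size factors and 0 without the filter, and Emo-24h vs SAP-24h 0 without the filter. DEX-24h vs Sham-24h had 4 to 7 calls under the alternatives that keep all of its rats.

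With a single library left out, the number of called genes ranged from 0 to 3 for DEX-6h vs Sham-6h, from 1 to 6 for Emo-6h vs DEX-6h, from 0 to 4 for SAP-24h vs Con-24h, from 0 to 1 for Emo-24h vs SAP-24h, from 0 to 6 for DEX-24h vs Sham-24h, from 1 to 8 for Emo-24h vs DEX-24h, from 0 to 2 for DEX-24h vs DEX-6h (2 without DEX-24h rat 1) and from 0 to 2 for Emo-24h vs Emo-6h (1, 2 and 1 without Emo-6h rat 1, 2 or 3), and was 0 to 0 for SAP-24h vs Sham-24h. Fewer libraries also give fewer residual degrees of freedom, and the cause of each loss was not tested.

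A replicate block was fitted although the numbers mark separate rats. The number of calls under the block was 0 for Emo-24h vs SAP-24h, and within 1.5 times the value above elsewhere. In SAP-24h vs Sham-24h the 1 call moved from Ncr1 (adjusted p = 0.0505 by edgeR) to Klrd1. Rats of the same number did not deviate together: the median correlation of their deviations was -0.0065, and 0.0096 between rats of different number. Only in DEX-24h vs DEX-6h were all same-numbered pairs above 0.1, and there the block gave 0 calls as well.

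Of the 10 genes most like the cytotoxic ones, 9 remained with a pseudocount of 0.1, with Spearman's correlation, among genes above 0 FPKM in every library, and on log2 CPM. Depth limits the genes with few reads. Of the 10 rows tested, Xcl1, Eomes and Ncr1 had the lowest counts in a single library, at 1, 1 and 4 reads, and Gzmb had as few as 7.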
